A study of Mus musculus with 6 samples.

Results

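The CC chemokines described here were 10 genes of one ligand family, Ccl2, Ccl3, Ccl4, Ccl5, Ccl6, Ccl7, Ccl8, Ccl9, Ccl12 and Ccl24, chosen by name. All 10 were among the 13008 genes measured by RNA sequencing of macrophages (MPs) sorted from mouse skeletal muscle at day 5 after cardiotoxin, a snake venom toxin that destroys muscle fibers. The comparison asked how loss of Cripto, a membrane-anchored co-receptor for ligands of the TGFβ family, in myeloid cells changes these macrophages. There were 3 Control and 3 Cripto KO samples, labelled as male C57BL/6J mice of 3 months. The labels give the Cripto KO genotype as Tg:LysMCre::Cripto-/- and the Control genotype as wild type. Per the methods of the study, the sorted cells were GFP+/F4/80+/Ly6C Low, so that both groups would also carry Tg:LysMCre and the R26mTmG reporter, which marks with GFP the cells in which Cre has acted. LysMCre acts in the myeloid lineage, neutrophils included, and does not delete in every macrophage. Whether each sample came from 1 mouse or from several pooled mice is not given in the sources used here.

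CC chemokines are small secreted proteins named after a pair of adjacent cysteines near the start of the mature chain. They bind G protein-coupled receptors of the CCR family and draw leukocytes along a gradient. In injured muscle, CCL2 acting on CCR2 is the textbook signal that brings Ly6C High monocytes out of the blood, and these monocytes then become the Ly6C Low macrophages that accompany regeneration. Mice and humans do not hold the same set: Ccl6, Ccl9 and Ccl12 are mouse genes with no simple human counterpart.

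The stretch of coding sequence that gives the family its name is shown for Ccl2 and Ccl7, neighbouring genes whose levels moved most closely together, for Ccl4, and for Ccl24, which differed between the groups in the opposite direction. Each is 36 bases of GRCm38, read 5′ to 3′ on the coding strand, with the codons of the 2 adjacent cysteines in capitals.
Ccl2, chr11:82036491-82036526, plus strand: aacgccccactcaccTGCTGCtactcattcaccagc
Ccl7, chr11:82046523-82046558, plus strand: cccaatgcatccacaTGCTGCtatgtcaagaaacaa
Ccl4, chr11:83663467-83663502, plus strand: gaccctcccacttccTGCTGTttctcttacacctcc
Ccl24, chr5:135572650-135572685, minus strand: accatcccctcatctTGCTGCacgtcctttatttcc
Among the members not shown, the pair was TGCTGC in all but Ccl12, which like Ccl4 used TGT for the second cysteine. Over the whole coding sequence Ccl3 and Ccl4 were the most alike of the 45 pairs, with 68.1% identical positions. No member shared more than 3.98% of its 31-base words with other annotated genes.

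Values are reads scaled to a normalized library size of 1000000, and differences are given as log2(Control/Cripto KO), so that a positive value means a higher level in Control. Between 12688968 and 15659847 reads per sample were counted on the genes of the table, and the 10 members together took 0.199% to 0.262% of them. The 10 macrophage markers listed, which have 11 rows in the table, summed to 20688 to 20732 in Control and 19077 to 20825 in Cripto KO. None had an unadjusted p under 0.05, which with 3 samples per group cannot show that the groups were equally pure. Markers of Ly6C High monocytes summed to 89.7 to 120 in Control and 99.6 to 115 in Cripto KO. Beside them, 2 libraries stood apart: Xist was 171 in Control replicate 1 against 0.114 to 0.885 elsewhere, against its male label, and Lyz2 was 11066 in Control replicate 2 against 21.2 to 28.3 elsewhere. The members' values without Control replicate 1 or 2 are given with each gene where leaving them out moved a difference by more than 1.5 times or turned its direction. The Cripto transcript (Tdgf1) is not analysed here. In these bulk samples, fewer cells making a transcript and less transcript per cell cannot be told apart.

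Per kilobase of the longest coding transcript, Ccl8 was the most abundant member, at 834 ± 169 (SD over 6 samples). Ccl8 encodes an attractant of monocytes and T cells. The next level was shared by several genes: Ccl4 at 423 ± 57.3, Ccl3 at 386 ± 83.7, Ccl6 at 335 ± 81.2, Ccl7 at 298 ± 56.8 and Ccl2 at 215 ± 35.5 per kilobase. Along that order each gene's range over the samples overlapped that of the next, whereas Ccl8 lay above Ccl4, and Ccl2 above Ccl9, in every sample. Ccl9 followed at 123 ± 13.99 and Ccl12 at 80.2 ± 16.4 per kilobase, with overlapping ranges. The lowest were Ccl5 at 21.9 ± 6.79 and Ccl24 at 13.2 ± 2.02 per kilobase, each below Ccl12 in every sample. A length over all annotated exons, an alternative chosen after seeing the data, would exchange the places of Ccl6 and Ccl7, and those of Ccl5 and Ccl24. By that length the means were 154 for Ccl2 and 122 for Ccl9 per kilobase, and Ccl2 was below Ccl9 in Control replicate 1.

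**Figure D1:**
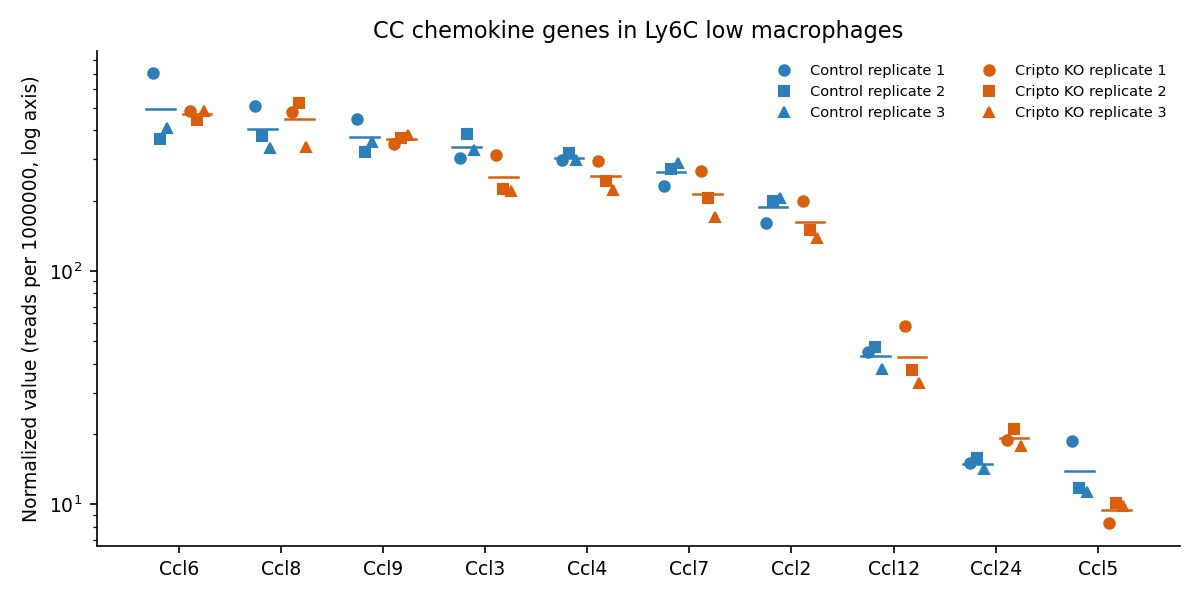
Normalized value (reads per 1000000, log axis) of the 10 CC chemokine genes in each of the 6 samples, ordered by mean level and not divided by length. Circles, squares and triangles are replicates 1, 2 and 3, Control in blue and Cripto KO in orange, and horizontal lines are group means. Ccl4, Ccl5 and Ccl24 are the genes whose groups do not overlap, and Control replicate 1 is the highest sample for Ccl5, Ccl6 and Ccl9.

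No CC chemokine differed between Control and Cripto KO after adjustment over all genes (limma with Benjamini-Hochberg adjustment), where 0.131% of the 13008 genes did. Before adjustment 4 of the 10 members had p under 0.05, against a background of 8.59% of all genes. The inflammatory ligands Ccl3, Ccl4 and Ccl5 were higher in Control, a call made for 4.6% of all genes, and the CCR3 ligand Ccl24 was higher in Cripto KO, a call made for 3.99%. The edgeR quasi-likelihood test on the recovered reads also gave 4 members with an unadjusted p under 0.05 and DESeq2 gave 5, and neither gave any after adjustment. The groups did not overlap for 3 members, Ccl4, Ccl5 and Ccl24, against 14.5% of all genes. Of the 10 log2 differences 8 were positive, as were 6839 of 13008 over all genes, and the median was 0.14 against 0.01. Among the 8, those of Ccl6, Ccl9 and Ccl12 were 0.01, 0.02 and 0.05, and turned negative in some alternative analyses.

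Ccl3 and Ccl4 encode the macrophage inflammatory proteins MIP-1α and MIP-1β, which activated macrophages release and which attract monocytes and T cells, CCL3 in part through CCR1. Ccl3 (chr11:83647844-83649355, minus strand) measured 305, 386 and 328 in the Control samples against 312, 223 and 220 in the Cripto KO samples. Cripto KO replicates 2 and 3 lay below every Control sample, while Cripto KO replicate 1 lay just above the lowest Control sample. Group means were 340 ± 41.8 and 252 ± 52.3 (SD, n = 3 each). The log2 difference was 0.44 (SE 0.14, 95% confidence interval 0.13 to 0.76), with an unadjusted p of 0.0112 and an adjusted p of 0.470 in limma. The unadjusted p stayed under 0.05 in 17 of 17 alternative analyses of these same samples, where the log2 difference was 0.35 to 0.61. The highest p lay just under the threshold, at 0.0497 in limma with quantile normalization.

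Ccl4 (chr11:83662584-83664683, plus strand) measured 297, 318 and 299 in Control against 296, 243 and 222 in Cripto KO. The groups did not overlap, but the lowest Control sample and Cripto KO replicate 1 differed by less than 1 unit. Its log2 difference was 0.28 (SE 0.10, 95% confidence interval 0.05 to 0.50), with an unadjusted p of 0.0233 and an adjusted p of 0.517 in limma. Ccl4 kept an unadjusted p under 0.05 in 12 of 17 alternatives, and lost it with quantile normalization, with eBayes without a trend, and without Control replicate 2, Cripto KO replicate 2 or Cripto KO replicate 3, where the lowest log2 difference was 0.18.

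Ccl5, also called RANTES, attracts T cells, monocytes and eosinophils through receptors that include CCR1 and CCR3, and T and NK cells are further known sources of it. Ccl5 (chr11:83525778-83530518, minus strand) measured 18.6, 11.8 and 11.3 in Control against 8.29, 10.2 and 9.82 in Cripto KO, from 130 to 252 reads per sample. Every Control sample was higher than every Cripto KO sample, and Control replicate 1 stood well above the other two. The log2 difference of 0.53 (SE 0.20, 95% confidence interval 0.08 to 0.97) had an unadjusted p of 0.0254 and an adjusted p of 0.523 in limma. Without Control replicate 1 the difference was 0.30, the lowest of all alternatives, and the unadjusted p was above 0.05, as it was without Cripto KO replicate 1 and with eBayes without a trend. Ccl5 kept it under 0.05 in 14 of 17 alternatives. Of 14 listed markers of T and NK cells 1 was in the table, with a summed level of 1.63 to 2.47 in Control and 1.76 to 2.64 in Cripto KO.

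Ccl24 encodes eotaxin-2, a ligand of CCR3 that attracts eosinophils and is made by macrophages exposed to IL-4. Ccl24 (chr5:135569937-135573049, minus strand), the only member outside chromosome 11, measured 15.0, 15.7 and 14.1 in Control against 18.9, 21.0 and 17.7 in Cripto KO, from 172 to 297 reads per sample. All 3 Cripto KO samples were above all 3 Control samples, with means of 14.9 ± 0.815 and 19.2 ± 1.64 (SD, n = 3 each). The level in Cripto KO was 1.29 times that in Control. The log2 difference was -0.36 (SE 0.11, 95% confidence interval -0.61 to -0.12), with an unadjusted p of 0.00843, the smallest of the members, and an adjusted p of 0.438 in limma. Its unadjusted p also stayed under 0.05 in 17 of 17 alternatives, and its log2 difference ranged from -0.42 to -0.30 over them. Ccl24 was the steadiest member within groups, with a residual SD of 0.10 on the log2 scale, where counting reads alone would give 0.10.

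The monocyte chemoattractants Ccl2 and Ccl7, which encode the CCR2 ligands MCP-1 and MCP-3, were not separated between the groups. Ccl2 (chr11:82035571-82037453, plus strand) measured 161, 199 and 204 in Control against 198, 150 and 138 in Cripto KO. Ccl7 (chr11:82045712-82047525, plus strand) measured 231, 272 and 289 in Control against 268, 204 and 171 in Cripto KO. In both genes Cripto KO replicate 1 lay within the Control range and the other Cripto KO samples lay below every Control sample. The log2 difference was 0.22 for Ccl2 (95% confidence interval -0.09 to 0.54, unadjusted p = 0.142 in limma) and 0.32 for Ccl7 (95% confidence interval -0.02 to 0.66, unadjusted p = 0.0636).

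Ccl12 (MCP-5, chr11:82101845-82103400, plus strand), another CCR2 ligand, measured 44.9, 47.0 and 38.0 in Control against 57.8, 37.6 and 33.2 in Cripto KO. Here the highest and the lowest samples were both Cripto KO, replicates 1 and 3, and the log2 difference of 0.05 had a 95% confidence interval of -0.37 to 0.47. It was 0.29 without Cripto KO replicate 1, 0.14 without Control replicate 3 and 0.02 without Control replicate 1, and turned to -0.01 without Control replicate 2, -0.02 without Cripto KO replicate 2 and -0.11 without Cripto KO replicate 3. Ccl8 (MCP-2, chr11:82115185-82116799, plus strand) measured 506, 377 and 334 in Control against 479, 523 and 338 in Cripto KO. Each group held a sample near the bottom of the range, and the log2 difference of -0.14 had a 95% confidence interval of -0.55 to 0.28. The value turned on single libraries, at -0.31 without Control replicate 1, -0.32 without Cripto KO replicate 3, -0.07 without Cripto KO replicate 1, -0.0071 without Control replicate 3 and -0.0098 without Cripto KO replicate 2. It stayed at -0.09 without Control replicate 2.

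Ccl6 and Ccl9 are made by many myeloid cells and act mainly on CCR1. Ccl6 (chr11:83587882-83593087, minus strand) measured 702, 367 and 409 in Control against 486, 444 and 482 in Cripto KO. Control replicate 1 was the highest sample and the other Control samples were the lowest, so that the Control SD of 182 was far above the Cripto KO SD of 23.0. The log2 difference was 0.01 (95% confidence interval -0.45 to 0.46). It turned to -0.28 without Control replicate 1, with an unadjusted p of 0.00539 in limma, and to -0.03 without Cripto KO replicate 2. Leaving out Control replicate 2 gave 0.19, and leaving out Control replicate 3 gave 0.11. Ccl9 (chr11:83572919-83578636, minus strand) measured 446, 322 and 357 in Control against 350, 371 and 381 in Cripto KO. Control replicate 1 was again the highest, and the log2 difference was 0.02 (95% confidence interval -0.23 to 0.27). It turned to -0.11 without Control replicate 1 and -0.02 without Cripto KO replicate 1, and was 0.12 without Control replicate 2 and 0.05 without either Control replicate 3 or Cripto KO replicate 3.

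**Figure D2:**
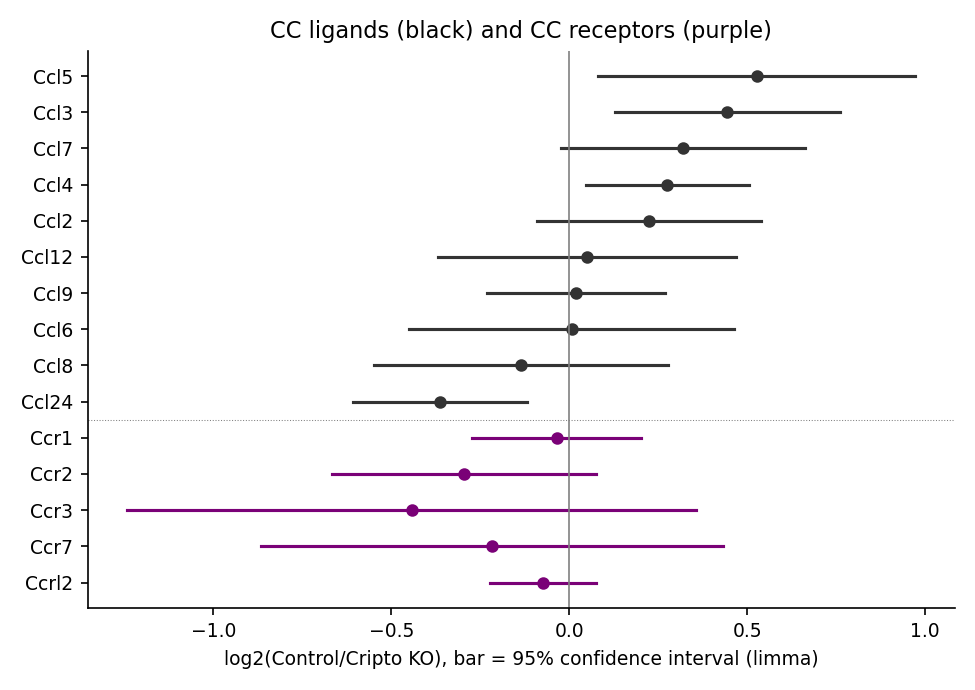
log2(Control/Cripto KO) from limma for the 10 CC ligands (black) and for Ccr1, Ccr2, Ccr3, Ccr7 and Ccrl2 (purple), with 95% confidence intervals as bars. The intervals of Ccl3, Ccl4, Ccl5 and Ccl24 leave out 0 before adjustment, and those of the receptors shown include 0.

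The spread between samples of one group was above counting error for 9 members. Their residual SD was 0.16 to 0.36 on the log2 scale, against 0.02 to 0.12 from counting alone, with Ccl6 the most variable and Ccl4 the steadiest of these 9. The samples did not all stand in the same place for every gene. Cripto KO replicate 3 was the lowest sample for 5 members, Ccl2, Ccl3, Ccl4, Ccl7 and Ccl12, and the highest for none. Control replicate 1 was the highest for 3 members, Ccl5, Ccl6 and Ccl9, and the lowest for none.

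**Figure D3:**
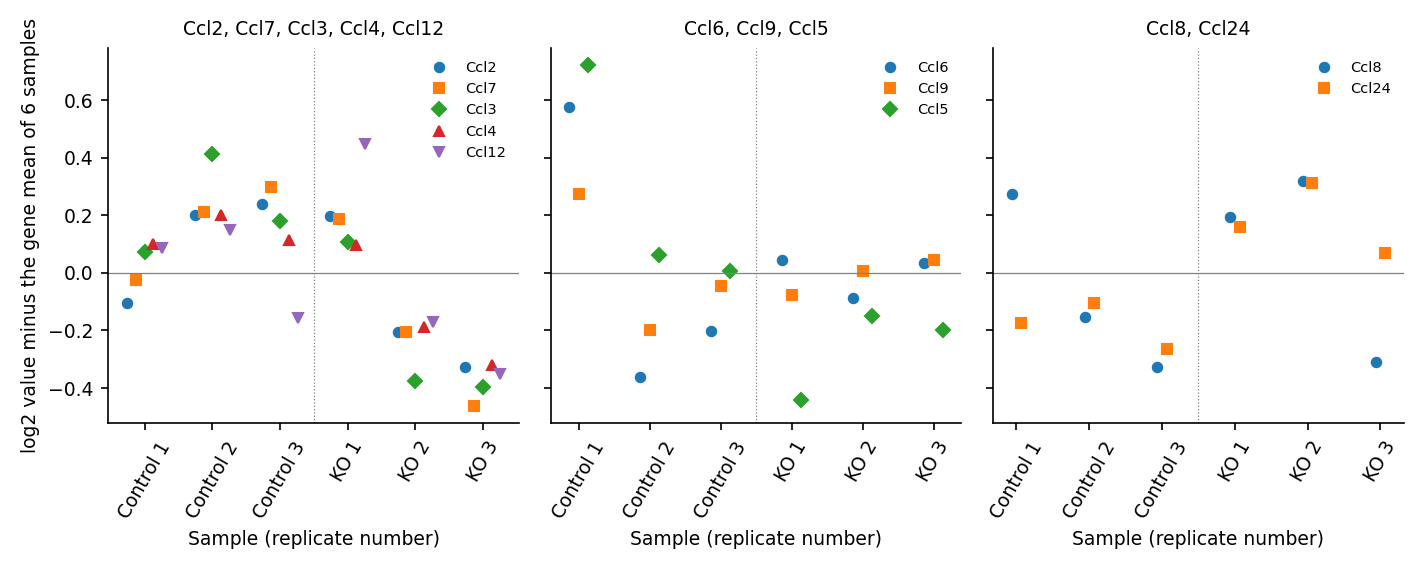
log2 value of each member minus its mean over the 6 samples, with 1 symbol per gene and sample, in 3 panels of genes grouped by how their values vary. In the left panel Cripto KO replicate 1 is above 0 and Cripto KO replicates 2 and 3 are below 0 for all 5 genes. In the middle panel Control replicate 1 is the highest sample for all 3 genes, and the right panel holds Ccl8 and Ccl24.

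Leaving out either of 2 libraries changed how many members separated the groups. With all 6 samples Ccl4, Ccl5 and Ccl24 did not overlap between the groups. Without Cripto KO replicate 1, 7 members did not overlap (Ccl2, Ccl3, Ccl4, Ccl5, Ccl7, Ccl12 and Ccl24), against 24.3% of all genes in the same 5 samples. An unadjusted p under 0.05 in limma was then reached by 6 members (Ccl2, Ccl3, Ccl4, Ccl7, Ccl12 and Ccl24), against 7.59% of all genes. The log2 differences were 0.61 for Ccl3, 0.49 for Ccl7, 0.39 for Ccl4, 0.38 for Ccl2 and 0.29 for Ccl12. Without Cripto KO replicate 3 they were smaller, at 0.36 for Ccl3, 0.17 for Ccl7, 0.18 for Ccl4, 0.12 for Ccl2 and -0.11 for Ccl12, and 3 members had an unadjusted p under 0.05 (Ccl3, Ccl5 and Ccl24), against 5.7% of all genes. Without Cripto KO replicate 1 the median log2 difference of the members was 0.33, against 0.01 over all genes. It was 0.08 without Cripto KO replicate 3, again against 0.01. Without Control replicate 1, 7 members did not overlap (Ccl2, Ccl3, Ccl4, Ccl5, Ccl6, Ccl7 and Ccl24), against 28.1% of all genes, and 6 had an unadjusted p under 0.05 (Ccl2, Ccl3, Ccl4, Ccl6, Ccl7 and Ccl24), against 10.5%. In no leave-one-out fit did a member pass an adjusted p of 0.05, and the smallest was 0.119, for Ccl3 without Cripto KO replicate 1.

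**Figure D4:**
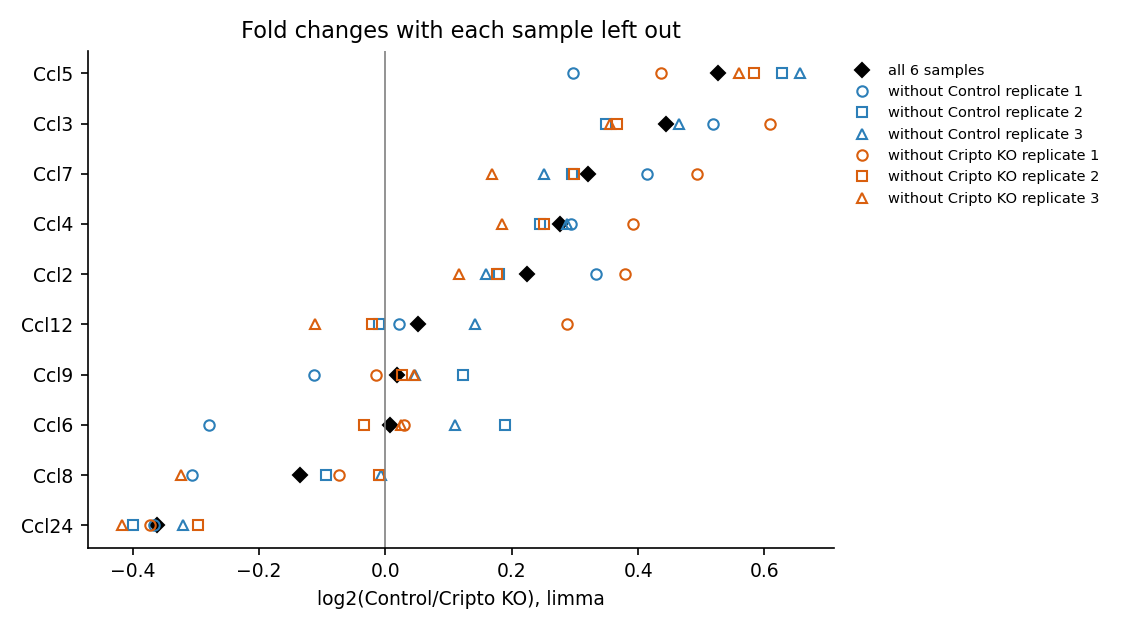
log2(Control/Cripto KO) of each member with all 6 samples (black diamonds) and with each sample left out in turn (open symbols, blue for a Control and orange for a Cripto KO sample). Leaving out Cripto KO replicate 1 gives the highest value for Ccl2, Ccl3, Ccl4, Ccl7 and Ccl12, and Ccl24 stays below 0 throughout.

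The same sample pattern appears in the correlations between members, computed on log2 values over the 6 samples. Over the 45 pairs the median Pearson r was 0.06, close to 0.02 over 29872585 pairs of the 7730 genes with a mean of at least 10. Of the 45 pairs 4 had r of at least 0.9, or 8.89%, against 1.17% of all pairs of genes. By an exact permutation test over the 720 pairings of samples (two-sided), 7 pairs had an unadjusted p under 0.05 and none had an adjusted p under 0.05 over the 45 pairs.

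The closest pair was Ccl2 and Ccl7, with r = 0.98 and Spearman's rho = 1.00. Their exact permutation p was 0.00139 for r, the smallest that 6 samples can give, and 0.00278 for rho, with adjusted values of 0.0625 and 0.125. Without the 2 samples farthest from the median, Cripto KO replicates 3 and 2, r was 0.97, and r of the deviations from group means was 0.98. Ccl3 and Ccl4 had r = 0.96 (exact permutation p = 0.00278, adjusted 0.0625) and rho = 0.94 (exact permutation p = 0.0167, adjusted 0.188). Without the same 2 samples r was 0.98, and within groups it was 0.92. Both relations therefore held without the samples that weighed most and inside the groups.

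Between these 2 pairs the relation was looser. Ccl4 and Ccl7 had r = 0.93, Ccl3 and Ccl7 0.89, Ccl2 and Ccl3 0.88, and Ccl2 and Ccl4 0.88, with exact permutation p of 0.00694 to 0.0125, an adjusted p of 0.0893 each, and rho of 0.89 to 0.94 (exact permutation p = 0.0167 to 0.0333, adjusted 0.188 to 0.250). Without Cripto KO replicates 2 and 3 these fell to between 0.29 and 0.50, so that they rest on those samples. For the same 4 pairs r of the deviations from group means was 0.84 to 0.90. Ccl12 followed the same 4 genes at r = 0.63 to 0.71, with exact permutation p of 0.125 or more.

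Ccl6 and Ccl9 formed a separate pair at r = 0.94 (exact permutation p = 0.0139, adjusted 0.0893), while their rho was 0.66 (exact permutation p = 0.175, adjusted 0.518). Without Control replicates 1 and 2, r was 0.17, so that the relation rests on these samples. Their r of the deviations from group means was 0.94. The highest r of Ccl24 was 0.50, with Ccl8, and its most negative was -0.66 with Ccl3 (exact permutation p = 0.168), which was 0.09 within groups. Ccl8 had no r above 0.53 with any other member.

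**Figure D5:**
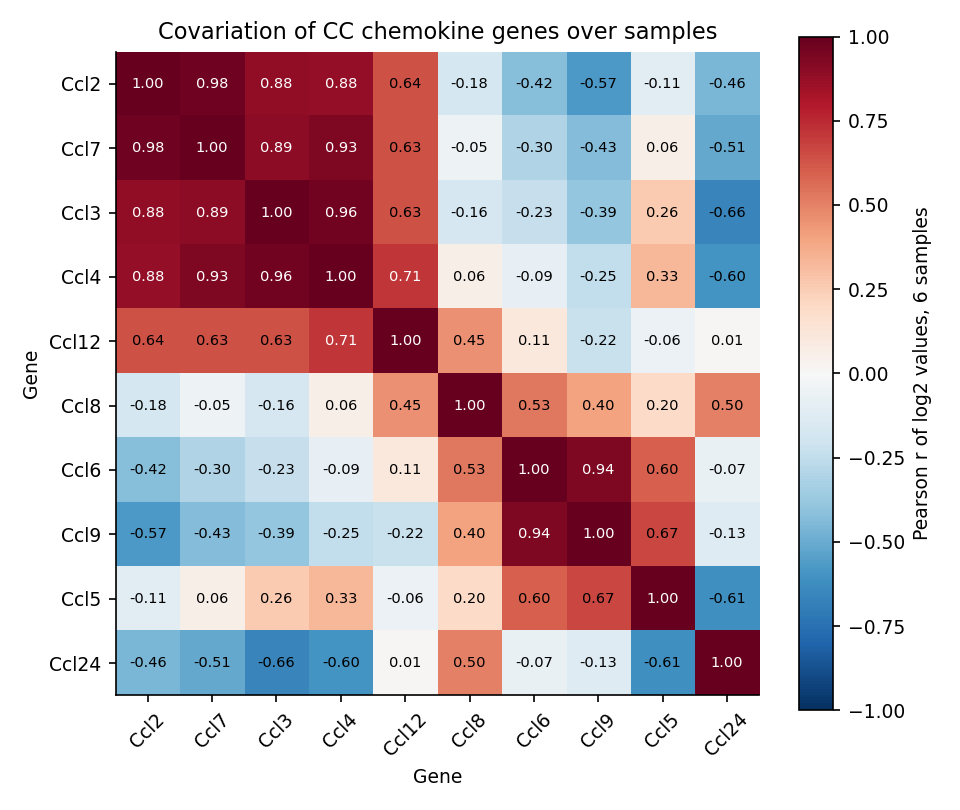
Pearson r of log2 values over the 6 samples for each pair of the 10 members, from blue (-1) to red (1), with r printed in each square. Ccl2, Ccl7, Ccl3 and Ccl4 form a block with r of 0.88 to 0.98, and Ccl6 and Ccl9 a second with 0.94.

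The genes that varied together are neighbours in the genome. Of the members 9 lie on chromosome 11 of GRCm38 in 2 groups that are 1409 kb apart, Ccl2, Ccl7, Ccl12 and Ccl8 in the first and Ccl5, Ccl9, Ccl6, Ccl3 and Ccl4 in the second. The gap was 8.26 kb between Ccl2 and Ccl7, 9.24 kb between Ccl9 and Ccl6, and 13.2 kb between Ccl3 and Ccl4. Proximity did not go with r throughout: Ccl12 and Ccl8 are 11.8 kb apart with r = 0.45, and the high r between Ccl2 or Ccl7 and Ccl3 or Ccl4 joined genes of the 2 groups. Of the 3 pairs with the most alike coding sequences, Ccl3 and Ccl4 (68.1% identical positions) had r = 0.96, Ccl6 and Ccl9 (64.6%) r = 0.94, and Ccl7 and Ccl8 (64.7%) r = -0.05.

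The RefSeq promoter table for GRCm38.p6 held 5 of the 10 members, Ccl3, Ccl6, Ccl8, Ccl9 and Ccl12. Of the 10 pairs among them, only Ccl6 and Ccl9 shared any 10-base word in the 250 bases before the start, 7 of 241 words. The last 100 bases before each start are shown because these 2 genes varied together, with the shared words in capitals.
Ccl6, chr11:83593088-83593187, minus strand: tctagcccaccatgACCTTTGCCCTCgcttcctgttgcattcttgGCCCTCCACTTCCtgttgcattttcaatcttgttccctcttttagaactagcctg
Ccl9, chr11:83578637-83578736, minus strand: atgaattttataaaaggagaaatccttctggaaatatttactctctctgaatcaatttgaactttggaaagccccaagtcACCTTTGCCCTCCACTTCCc
On either strand of the table's promoters, TATAAA was found in Ccl8, Ccl9 and Ccl12 and in 13.6% of 32851 promoters. GAGGAA, the core bound by ETS factors such as PU.1, was found in Ccl3, Ccl8 and Ccl12 and in 28.3% of promoters. The AP-1 motif TGANTCA and the NF-kB consensus were found in Ccl9, and in 7.81% and 8.46% of promoters. The STAT motif TTCNNNGAA was in none of the 5, and in 8.30% of promoters. Matches of different motifs were counted separately and may overlap, and a match describes the letters of the window only.

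Among the 7720 other genes with a mean of at least 10, Ly86, which encodes the MD-1 partner of a Toll-like receptor homologue, was the gene most like both Ccl2 (r = 0.99 over the 6 samples) and Ccl7 (r = 0.98). Their next were Otud1 for Ccl2 (r = 0.99) and B3gnt2 for Ccl7 (r = 0.98). Ccl3 was most like Zkscan17 and Fam46c (r = 0.99 each) and Ccl4 most like Mrps14 and Trappc5 (r = 0.99 each). Ccl6 was most like Cfp, which encodes properdin of the complement system, and Bcas2 (r = 1.00 and 0.99), and Ccl9 most like Map4k2 (r = 1.00) and Snapc1 (r = 0.99). Ccl5 was most like Trim8 and Sdhb (r = 0.99 each), Ccl8 most like Rab10os (r = 0.98) and Tmem63a (r = 0.97), and Ccl12 most like Mien1 (r = 0.99) and Ints7 (r = 0.97). Ccl24 was most like Hspe1, which encodes a mitochondrial chaperonin, and Gm29216 (r = 0.99 and 0.98). With 6 samples such values are common: each member had between 29 (Ccl8) and 191 (Ccl5) genes at r of at least 0.9.

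The other CC ligands were near the limit of counting. Of 14 listed, 5 were in the table, and none had an unadjusted p under 0.05. Ccl11 (eotaxin-1), Ccl22, Ccl25 and Ccl27a, ligands of CCR3, CCR4, CCR9 and CCR10, had values between 0.248 and 2.93 in all samples, and Ccl27a shares 57.0% of its 31-base words with other genes, which makes its count uncertain. Ccl17, a CCR4 ligand of IL-4-treated macrophages and dendritic cells, had 0 reads in all 6 samples, which allows at most 3 reads per sample or a value of 0.222 to 0.286.

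Receptor levels ranged widely. Ccr1 measured 66.1 to 80.2 in Control and 66.9 to 81.7 in Cripto KO, with a log2 difference of -0.03 (95% confidence interval -0.27 to 0.20). Ccr2, the monocyte receptor of CCL2, CCL7 and CCL12, measured 54.5, 54.7 and 36.8 in Control against 69.4, 51.9 and 56.3 in Cripto KO, with a log2 difference of -0.30 (95% confidence interval -0.67 to 0.08). Ccr3, the eosinophil receptor of CCL24, stayed between 0.939 and 1.96, and Ccr7, the dendritic cell receptor for lymph node entry, between 1.93 and 3.97. Ccrl2, an atypical receptor that presents chemerin, was the most abundant of the group at 886 to 992, with a log2 difference of -0.07 (95% confidence interval -0.22 to 0.08). Of 11 listed CC receptors, a list that leaves out the atypical Ccrl2, 5 were in the table and none had an unadjusted p under 0.05.

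Upstream of the inflammatory ligands, 31 of 33 listed sensors, kinases and transcription factors were in the table. An unadjusted p under 0.05 was reached by 5, all higher in Control, and by none higher in Cripto KO, against 4.6% and 3.99% of all genes. The list's median log2 difference was 0.10, against 0.01 over all genes, and none passed adjustment. The 5 genes included Nfkbiz, a nuclear NF-kB cofactor (log2 difference 0.30, adjusted p = 0.327 in limma) and Tlr2, a receptor for bacterial lipoproteins (0.26, adjusted p = 0.479). These are values of the same samples as those of Ccl3, Ccl4 and Ccl5, and a link between them was not tested.

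For the IL-4 and STAT6 axis, which induces Ccl24 in macrophages, all 18 listed genes were measured, with a median log2 difference of 0.01. An unadjusted p under 0.05 was reached by 6 of them, 4 on the Control side and 2 on the other, against 4.6% and 3.99% of all genes. The smallest p values were those of Cish, a STAT5-induced inhibitor of cytokine signaling (2.73, adjusted p = 0.0235 in limma), Klf4 (0.32, adjusted p = 0.235), a STAT6-induced transcription factor, and the kinase Jak1 (0.15, adjusted p = 0.537), all higher in Control. The 2 genes higher in Cripto KO were Pdcd1lg2 (-1.53, adjusted p = 0.548), which encodes the PD-1 ligand PD-L2, and the lipid-sensing nuclear receptor Pparg (-0.22, adjusted p = 0.559), named after their values were seen. Pdcd1lg2 was near the limit of counting, with 6, 1 and 5 reads in Control against 12, 14 and 10 in Cripto KO, so its size is uncertain. A link with Ccl24 was not tested.

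Of the genes that carry the signal below CC receptors 28 of 29 were measured, and 2 reached an unadjusted p under 0.05, both higher in Control, a share near the 8.59% of all genes. These were the G protein subunit Gng2 (0.33, adjusted p = 0.156 in limma) and Rgs1, a brake on G protein signaling (0.27, adjusted p = 0.500). Of 15 measured enzymes and glycan carriers that trim or bind CC ligands, 1 had an unadjusted p under 0.05, also near that share. Mmp9, a gelatinase that also cleaves chemokines, was 15.2, 22.4 and 21.9 in Control against 39.3, 45.6 and 41.5 in Cripto KO. Its groups were far apart, and it rose in Cripto KO, with a log2 difference of -1.10 (SE 0.15, adjusted p = 0.0313 in limma).

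Markers of other cells and of handling moved with the groups or with single samples. All 10 fibroblast markers were lower in Control, as were 6169 of 13008 genes. Of these markers 6 had an unadjusted p under 0.05, a call made in this direction for 3.99% of all genes. The 10 markers summed to 537 to 569 in Control and 639 to 689 in Cripto KO, groups that did not overlap, as for Ccl24. Of 9 measured muscle fiber markers 5 were higher in Control with an unadjusted p under 0.05, against 4.6% of all genes. The sum of the 9 was 79.9, 37.0 and 34.6 in Control against 51.7, 18.5 and 13.4 in Cripto KO. The highest sum was in Control replicate 1, and among Cripto KO samples in replicate 1, the samples that stood apart for Ccl5, Ccl6 and Ccl9 and for Ccl2, Ccl3, Ccl4, Ccl7 and Ccl12. An unadjusted p under 0.05 was reached by 8 of 24 immediate-early and dissociation genes, 5 of them on the Cripto KO side, against 8.59% and 3.99% of all genes, the smallest p values being those of the heat-shock genes Hsph1 (-0.87), Hspa1b (-0.58) and Hspa1a (-0.54). The 24 genes summed to 32219 to 35219 in Control and 35937 to 38813 in Cripto KO. The part of these differences in the chemokine values was not tested.

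Other leukocytes gave low and overlapping sums, and the sums of endothelial and of resident-type macrophage markers overlapped too. Neutrophil markers, 9 of 11 measured and 3 of them at 0 reads in all samples, summed to 107 to 115 in Control and 101 to 111 in Cripto KO. Eosinophil markers, 2 of 8 measured, summed to 2.94 to 3.83 and 2.90 to 3.81, dendritic cell markers, 5 of 8 measured, to 7.38 to 10.7 and 8.29 to 9.06, and B cell markers, 4 of 6 measured and 1 at 0 reads, to 78.6 to 111 and 89.7 to 114. Endothelial markers, 8 measured, summed to 56.6 to 67.2 and 61.3 to 66.8. The 8 markers of resident-type macrophages summed to 1835 to 2040 in Control and 1758 to 2211 in Cripto KO. Of these 7 were higher in Cripto KO, as were 6169 of 13008 genes. An unadjusted p under 0.05 was reached by 1 of the 7, against 3.99% of all genes. The median log2 difference of the 8 was -0.14, against 0.01 over all genes.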

How the data were processed

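RNA of GFP+/F4/80+/Ly6C Low MPs was sequenced in 3 Control and 3 Cripto KO samples. Per the methods of the study, the authors trimmed reads with cutadapt 1.7.1, mapped them to the GRCm38 transcriptome and quantified genes with RSEM 1.2.20. The authors deposited a normalized signal: to judge from the values, each is a whole number of reads plus 0.5, scaled to a normalized library size of 1000000. Reads could therefore be recovered, and 100% of 78048 values were whole within 0.01 read. How multi-mapping reads were shared between genes was not tested.

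The main test was limma 3.58.1 (empirical Bayes with a trend) on log2 of the deposited values, with no pseudocount since no value is 0, and Benjamini-Hochberg adjustment over 13008 genes. edgeR 4.0.16 and DESeq2 1.42.0 were run on recovered reads. The tests were checked on simulated data. Levels per kilobase used the longest coding transcript of GENCODE on GRCm38. The limit of 3 reads covers counting error only. The confidence intervals and p-values of limma rest on the spread between these samples. The members, gene lists and markers were chosen with earlier results of these data known. Named beside the members were all measured CC ligands and receptors, for other pathway lists up to 3 genes with the smallest unadjusted p under 0.05, and the 2 genes with the highest r to each member. No sample was left out. Some items that this rule names are not reported here.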

Additional observations from a re-analysis of the deposited data

How the results depend on the processing

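Over 17 alternatives (pseudocounts of 0.5 and 1, a mean of at least 1, median centring, quantile normalization, eBayes without a trend, robust eBayes, edgeR, DESeq2, voom weights, a replicate block and each sample left out), no member passed an adjusted p of 0.05. The members with an unadjusted p under 0.05 numbered 2 without a trend, where 998 of 13008 genes did so, and 3 to 6 with a sample left out, where 741 to 1360 genes did. Members whose groups did not overlap numbered 3 to 7 with a sample left out, with 7 without Control replicate 1 (28.1% of all genes) and without Cripto KO replicate 1 (24.3%). The median log2 difference was then 0.08 to 0.33, and the median r between members -0.073 to 0.21. The direction held in all alternatives for Ccl2, Ccl3, Ccl4, Ccl5, Ccl7, Ccl8 and Ccl24. Ccl6 was -0.042 with quantile normalization, -0.0041 with voom weights and -0.28 to 0.19 with a sample left out. Ccl9 was -0.023 with quantile normalization and -0.11 to 0.12 with a sample left out, and Ccl12 was -0.11 to 0.29. The cause was not tested. Over all genes, 17 passed an adjusted p of 0.05, against 74 with DESeq2, 31 with robust eBayes, 10 with voom weights, 6 with quantile normalization, 5 without a trend, 2 with the replicate block and 5 to 31 with a sample left out. Same-numbered samples did not deviate together (r = -0.21, -0.0052 and -2.46e-05 over 11960 genes). The sources used here do not state that the numbers pair the samples. With 3 samples per group these values cannot decide it. With the replicate block 4 members had an unadjusted p under 0.05, as did 928 of 13008 genes, and 0 an adjusted one. Ccl5 and Ccl24, with 130 to 297 reads per sample, are the members that depth limits most.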
